A study of Mus musculus with 300 samples.

Results

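Genes of the proteasome were followed in single cells of the early thymic progenitor (ETP) population, the first T-lineage precursors of the thymus. The members were all features of the expression matrix whose mouse gene symbol starts with Psma, Psmb, Psmc, Psmd or Psme and a digit, with pseudogenes marked -ps left out. The rule found 45 of 13737 features and used no measured value. By role these were 8 alpha subunits of the core, 7 constitutive beta subunits of the core, 5 immunoproteasome genes (Psmb8, Psmb9, Psmb10, Psme1 and Psme2), Psmb11 of the thymoproteasome, 6 ATPases of the regulatory ring, 14 further subunits and base factors of the regulatory particle, and the activators Psme3 and Psme4. A further 2 genes met the rule by name only. Psmc3ip encodes a partner of meiotic recombinases and is no proteasome subunit, and Psme2b is a retrocopy of Psme2 that can share its reads. The alpha subunits other than the germ-line gene Psma8, the constitutive beta subunits, the ATPases and the regulatory particle are called constitutive here (34 genes).

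The proteasome is a barrel-shaped protease that degrades proteins tagged with ubiquitin. Rings of alpha subunits gate the barrel, rings of beta subunits carry the active sites, and a regulatory particle with a ring of ATPases binds, unfolds and feeds in the substrate. In blood cells and under interferon, Psmb8, Psmb9 and Psmb10 take the places of the catalytic subunits Psmb5, Psmb6 and Psmb7, and Psme1 and Psme2 form the PA28 activator cap, which favours peptides for MHC class I. Psmb11 takes the same place as Psmb5 and Psmb8 in cortical epithelial cells of the thymus, where it shapes the selection of CD8 T cells.

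The cells came from the E15.5 embryonic thymus of 5x polychromILC mice, a strain that carries fluorescent and surface reporters at lineage regulator loci in every cell studied, and there was no treatment and no cell group without the reporters. Single cells were sorted into 96-well plates and read with Smart-seq2, which copies whole transcripts without molecular tags and without keeping the strand. The labels name 4 mouse ids. Mouse 1A gave 67 cells to the deposited matrix, 1B gave 69, 2A gave 64 and 2B gave 61, and wherever 4 values by mouse follow they keep this order. A further 39 labelled cells were not analysed here. The cells lie on 4 plates in 2 sequencing pools, with 1A and 1B in the first pool only and 2A in both. Mouse, plate and sequencing pool therefore cannot be fully told apart. The labels say neither whether a mouse id is 1 embryo or a pool nor which gate was used. The p-values therefore rest only on the spread between these mouse ids. In the limma test each gene's variance is also drawn toward that of all genes. Values were deposited as log2 expression after the authors' batch correction, so read depth per cell is unknown and the number of genes detected stands in for it (median 7782, 5073 to 10337). Exact shared values split the cells into 4 correction sets that cross the mouse labels, and 2A and 2B share 2 of these sets, so those mice may not be fully independent. As a check of the label, Kit was detected in 90.8% of cells, Cd34 in 94.6%, Lck in 98.1%, Gata3 in 82.8%, Tcf7 in 80.8% and Cd3e in 6.51%. The population was not pure by markers: Klrd1 (CD94, a receptor of NK cells and innate lymphoid cells) reached a level of at least 10 above its no-read level, on a linear scale, in 34 cells and Siglech (plasmacytoid dendritic cells) in 36, with 9 cells in common.

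Promoter sequence is shown for the immunoproteasome subunits Psmb8, Psmb9 and Psmb10, for Psme1 of the PA28 cap, and for the replaced subunits Psmb5 and Psmb6 (Psmb7 had no entry). Each is a RefSeq window of GRCm38.p6, from 250 bases before the RefSeq start to 50 after it, printed 5′ to 3′ on the gene's strand. For Psmb8, Psmb9 and Psme1 that start lies 474, 434 and 371 bases inside the start of the longer GENCODE gene, so these windows lie within that gene. Capitals mark a match on either strand to the interferon-gamma activated site (GAS, TTCNNNGAA), the interferon-stimulated response element (ISRE, GAAA and GAAA with any 2 bases between) or the antioxidant response element (ARE, TGACNNNGC), the last being a site of the NRF factors that drive constitutive proteasome genes. The windows lie at chr17:34197945-34198244 on the plus strand (Psmb8), chr17:34187281-34187580 on the minus strand (Psmb9), chr8:105938343-105938642 on the minus strand (Psmb10), chr14:55578244-55578543 on the plus strand (Psme1), chr14:54617946-54618245 on the minus strand (Psmb5) and chr11:70525107-70525406 on the plus strand (Psmb6).
Psmb8: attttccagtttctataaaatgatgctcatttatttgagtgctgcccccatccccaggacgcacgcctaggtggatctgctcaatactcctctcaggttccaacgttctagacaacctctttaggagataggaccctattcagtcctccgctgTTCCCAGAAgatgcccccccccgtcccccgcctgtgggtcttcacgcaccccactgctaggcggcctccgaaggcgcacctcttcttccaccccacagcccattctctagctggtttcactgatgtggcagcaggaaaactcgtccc
Psmb9: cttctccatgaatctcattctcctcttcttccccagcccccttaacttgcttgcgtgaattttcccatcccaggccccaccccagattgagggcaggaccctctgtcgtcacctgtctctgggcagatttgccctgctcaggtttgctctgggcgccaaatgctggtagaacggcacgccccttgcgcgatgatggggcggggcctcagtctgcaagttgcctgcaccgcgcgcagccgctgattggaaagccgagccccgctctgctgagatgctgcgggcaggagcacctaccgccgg
Psmb10: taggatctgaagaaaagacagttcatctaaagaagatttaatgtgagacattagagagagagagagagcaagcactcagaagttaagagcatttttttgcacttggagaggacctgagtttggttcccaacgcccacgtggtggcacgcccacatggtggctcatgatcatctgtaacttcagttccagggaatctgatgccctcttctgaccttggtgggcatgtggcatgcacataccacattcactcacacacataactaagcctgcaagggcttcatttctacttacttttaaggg
Psme1: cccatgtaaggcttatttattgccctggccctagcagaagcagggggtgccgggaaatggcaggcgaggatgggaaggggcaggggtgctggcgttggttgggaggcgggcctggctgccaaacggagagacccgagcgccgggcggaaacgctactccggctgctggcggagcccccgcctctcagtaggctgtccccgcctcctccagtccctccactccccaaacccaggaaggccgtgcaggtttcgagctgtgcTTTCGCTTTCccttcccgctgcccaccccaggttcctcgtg
Psmb5: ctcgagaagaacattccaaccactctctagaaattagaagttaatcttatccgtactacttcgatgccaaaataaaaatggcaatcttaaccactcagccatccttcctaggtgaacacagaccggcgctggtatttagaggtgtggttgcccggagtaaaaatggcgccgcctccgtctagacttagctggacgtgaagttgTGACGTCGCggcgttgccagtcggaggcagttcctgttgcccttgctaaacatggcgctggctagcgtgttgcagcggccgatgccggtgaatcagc
Psmb6: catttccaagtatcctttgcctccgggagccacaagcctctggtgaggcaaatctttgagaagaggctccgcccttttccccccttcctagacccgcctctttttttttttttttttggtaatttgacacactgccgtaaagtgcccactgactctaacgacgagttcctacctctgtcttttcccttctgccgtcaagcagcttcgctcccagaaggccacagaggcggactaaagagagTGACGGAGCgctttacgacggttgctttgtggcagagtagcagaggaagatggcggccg

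In these windows the GAS match of Psmb8 began 97 bases before the RefSeq start, and the ISRE match of Psme1, on the opposite strand, at base 10 of the transcript. The ARE matches of Psmb5 and Psmb6 began 47 and 9 bases before the start. Psmb9 and Psmb10 held none of these letter patterns, which says only that the letters are not in their windows. Of the 45 members, 38 matched a RefSeq promoter. GAS matches were in 2 of the 38 (Psmb8 and Psmd2), ISRE matches in 4 (Psmb3, Psmd4, Psmd9 and Psme1) and ARE matches in 6 (Psmb5, Psmb6, Psmc6, Psmd9, Psmd12 and Psme4). Of all 32851 RefSeq promoters, 8.3% held GAS, 3.44% ISRE and 12.4% ARE letters, so such matches are common and describe the sequence only.

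The immunoproteasome genes lie in 3 places of GRCm38. Psmb8 (chr17:34197721-34201454) and Psmb9 (chr17:34181987-34187764) flank the peptide transporter gene Tap1 in the MHC region, on opposite strands and 9956 bases apart. The first bases of Psmb9 overlap those of Tap1 on the other strand, and in a method that does not keep the strand the reads of that stretch cannot be told apart. Psme1 (chr14:55578123-55581529) and Psme2 (chr14:55587441-55591113) are neighbours 5911 bases apart, and Psmb10 is at chr8:105935735-105938444. Of the replaced subunits, Psmb6 is at chr11:70525367-70527858 and Psmb7 at chr2:38588036-38644087, where it overlaps Nek6 on the other strand. Psmb5 (chr14:54614119-54618022) lies 3410 bases from Psmb11 (chr14:54621433-54629556), so the constitutive and the thymic form of this active site are divergent neighbours.

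Nearly every cell carried transcripts of both forms of the proteasome. For 17 of the 45 members no repeated no-read level was found in any set, so they count as detected in all cells, although a lone cell without reads in a set would not be recognised. These 17 included Psmb8, Psme1 and Psme2, all 3 at 100%, and Psmb5 and Psmb6. Psmb10 was detected in 99.2% of cells, Psmb9 in 94.3% and Psmb7 in 96.2%. The 34 constitutive genes were detected in 72.4% to 100% of cells, with Psmd10, the oncoprotein gankyrin and a chaperone of regulatory particle assembly, at the low end.

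Deposited log2 values of Psmb8 ran from 1.24 over a median of 9.09 to 11.18 among the cells. Psmb9 ran from -1.09 over 6.67 to 9.23, and Psmb10 from -0.08 over 7.36 to 10.26. The PA28 subunits Psme1 and Psme2 had medians of 8.81 (1.43 to 12.01) and 8.15 (1.61 to 10.55). In all 5 the lowest cell lay further from the median than the highest did. The replaced subunits had medians of 8.0 for Psmb5 (-0.31 to 9.67), 8.14 for Psmb6 (0.46 to 9.96) and 6.92 for Psmb7 (-0.97 to 9.26). The labels do not say how the deposited values treat transcript length, so levels are not ranked between genes.

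**Figure D1:**
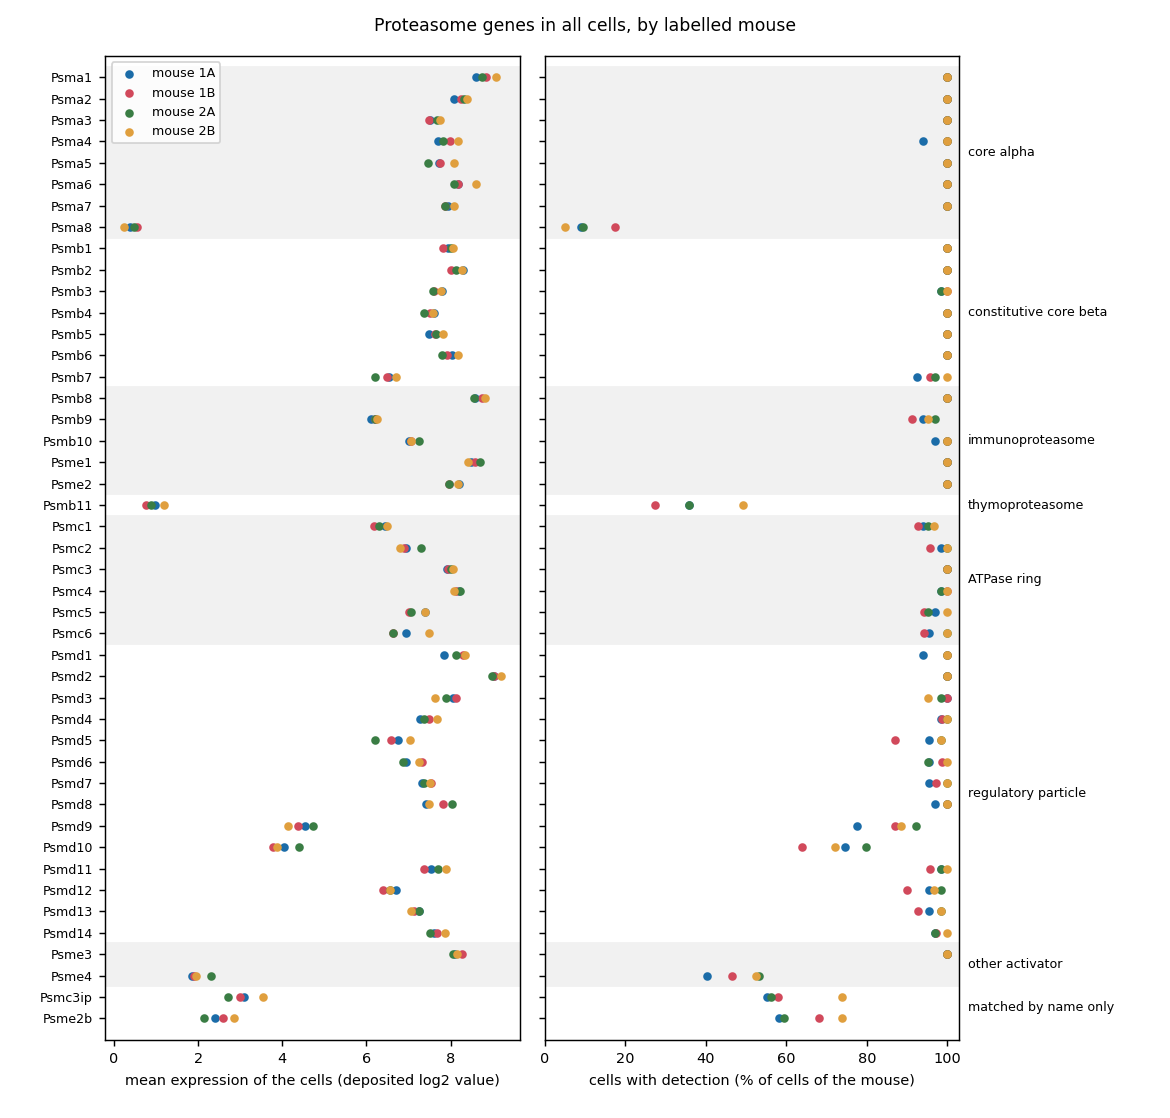
Left, mean deposited log2 value of each proteasome gene over the cells of a mouse, and right, the percent of that mouse's cells with detection. Each point is 1 of the 4 labelled mice and rows are grouped by role. The mice lie close together for most genes, and Psma8, Psmb11, Psme4 and the 2 genes matched by name only stand out by low detection.

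Among roles with at least 5 members, the spread among cells was smallest for the constitutive core genes and largest for the regulatory particle. The SD among cells of a correction set was lowest for Psme2 (0.94 log2 units) and highest for Psmd10 (2.93). By role the median SD was 1.19 for the constitutive beta subunits, 1.34 for the alpha subunits, 1.46 for the immunoproteasome genes, 2.01 for the ATPases and 2.13 for the regulatory particle. Psme3 had 1.99 and Psme4 2.65, and of the genes matched by name only Psme2b had 2.09 and Psmc3ip 2.73. Detection moved with it: 6 of 8 alpha and 5 of 7 constitutive beta genes were detected in all cells, against 1 of 6 ATPase and 1 of 14 regulatory particle genes. The part of detection in the SD was not tested.

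Members outside the standard particle were detected less widely. Psma8, the alpha subunit of the male germ line (chromosome 18), was detected in 27 cells (10.3%, exact 95% binomial interval 6.93 to 14.7). Psme4 (PA200, the activator linked to histone degradation) was detected in 47.9% (41.7 to 54.1). Intervals here and below cover counting error only. Psme2b was detected in 64.8% and Psmc3ip in 60.5%.

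Psmb11, the thymoproteasome subunit of cortical epithelium, was detected in 96 cells (36.8%, exact 95% binomial interval 30.9 to 42.9), yet a level of at least 10 was reached in only 22 (8.43%, 5.36 to 12.5). By mouse the detected share was 35.8% in 1A, 27.5% in 1B, 35.9% in 2A and 49.2% in 2B. Its highest level was 823 in mouse 2B, against 91.3 in 2A and 47.7 in 1B, with mouse 1A between 2A and 2B. So most detections were faint and a few cells stood far above the rest.

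Other epithelial genes were present beside it. The cells with Psmb11 had on average 2.64 of 8 other thymic epithelial markers detected, against 1.62 in the cells without it. In mice 2A and 2B the averages were 3.83 against 2.07 and 3.53 against 2.00. In 1A they were 1.79 against 1.47, and in 1B the order was the other way, 0.842 against 1.16. Mice 1A and 1B are in the first sequencing pool only and 2A is in both, so mouse and pool cannot be fully told apart here. These averages were not compared by correction set, or by pool inside 2A. Over all cells, on values centred per set, Psmb11 had a Spearman rho of 0.44 with Dll4, 0.39 with Foxn1 (the master regulator of thymic epithelium), 0.36 with Krt8, 0.35 with Epcam, 0.31 with Prss16 and 0.30 with Krt18. The coefficient was lower with Ccl25 (0.17) and Ly75 (0.03). These describe cells of 4 mice that share libraries within a plate, and many values at the no-read level. Ranks were taken over all cells after centring, so no-read values of a gene rank by set. Each rho can therefore follow the sets in part. In the cells without Psmb11, Foxn1 was still detected in 5.45% and Krt18 in 32.7%, against 18.8% and 55.2% in the cells with it. Whether epithelial RNA or cells in the same well account for Psmb11 was not tested.

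**Figure D2:**
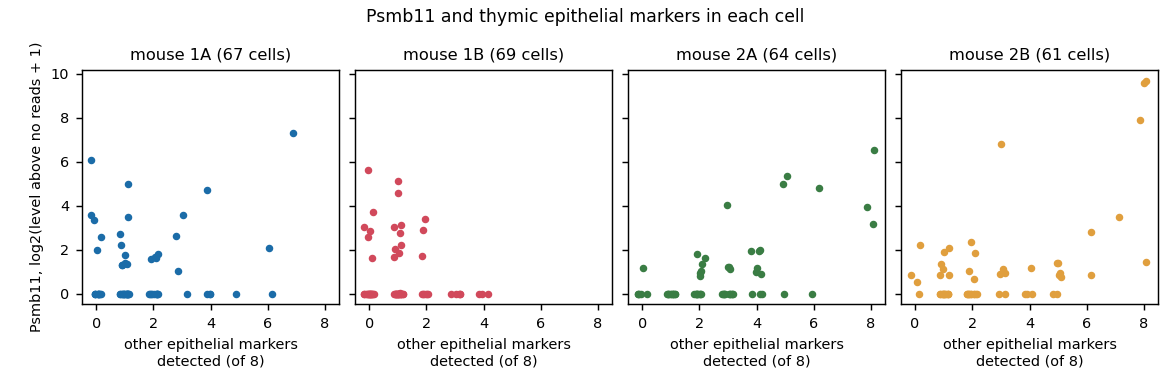
Psmb11 level of each cell, as log2 of the linear level above the no-read level plus 1, against the number of 8 other thymic epithelial markers detected in that cell, one panel per labelled mouse, with points spread sideways at random within each count. The 3 highest Psmb11 levels of mouse 2B lie at 8 markers, while in mouse 1B the cells with Psmb11 have at most 2.

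The constitutive genes varied together among cells. Over all cells of the matrix, on values centred per correction set, the median Spearman rho over the 561 pairs of constitutive genes was 0.15 and 543 pairs were positive. The same median over all pairs of the 2466 genes detected in at least 90% of cells was 0.06. Within roles the alpha subunits had the highest median, 0.30 over 21 pairs (0.22 to 0.39). The constitutive beta subunits had 0.21, the ATPases 0.15 and the regulatory particle 0.10. By mouse the alpha median was 0.35 in 1A, 0.21 in 1B, 0.32 in 2A and 0.33 in 2B. By rho, values of alpha genes thus ran together more than those of the regulatory particle did, in each of the 4 mice. Fewer regulatory particle genes were detected in all cells, and the part of detection in these coefficients was not tested.

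The 5 immunoproteasome genes had a higher median among themselves than with the constitutive genes, with overlapping ranges. All 10 of their pairs were positive (0.08 to 0.29, median 0.22), and the median was 0.14 in mouse 1A, 0.28 in 1B, 0.23 in 2A and 0.22 in 2B. Psmb8 with Psme2 had the highest value, 0.29, followed by Psmb8 with Psmb9 (0.26). Psmb9 and Psmb10 had only 0.08 to 0.11 with Psme1 and Psme2. The 170 pairs with constitutive genes ran from -0.17 to 0.33 and had a lower median, 0.08, with 0.06, 0.12, 0.04 and 0.11 by mouse. The alpha subunit Psma7 reached 0.33 with Psme2 and 0.32 with Psmb8, above every pair within the immunoproteasome genes. In every mouse the median within the immunoproteasome genes was above the median across to the constitutive ones. With the number of detected genes taken out of the ranks, the medians were 0.21 within and 0.08 across. The subunits that replace each other did not run in opposite directions: rho was 0.13 for Psmb8 with Psmb5, 0.10 for Psmb9 with Psmb6 and 0.19 for Psmb10 with Psmb7. These coefficients are weak, rest on cells that share plates, and are given as a description without a test.

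**Figure D3:**
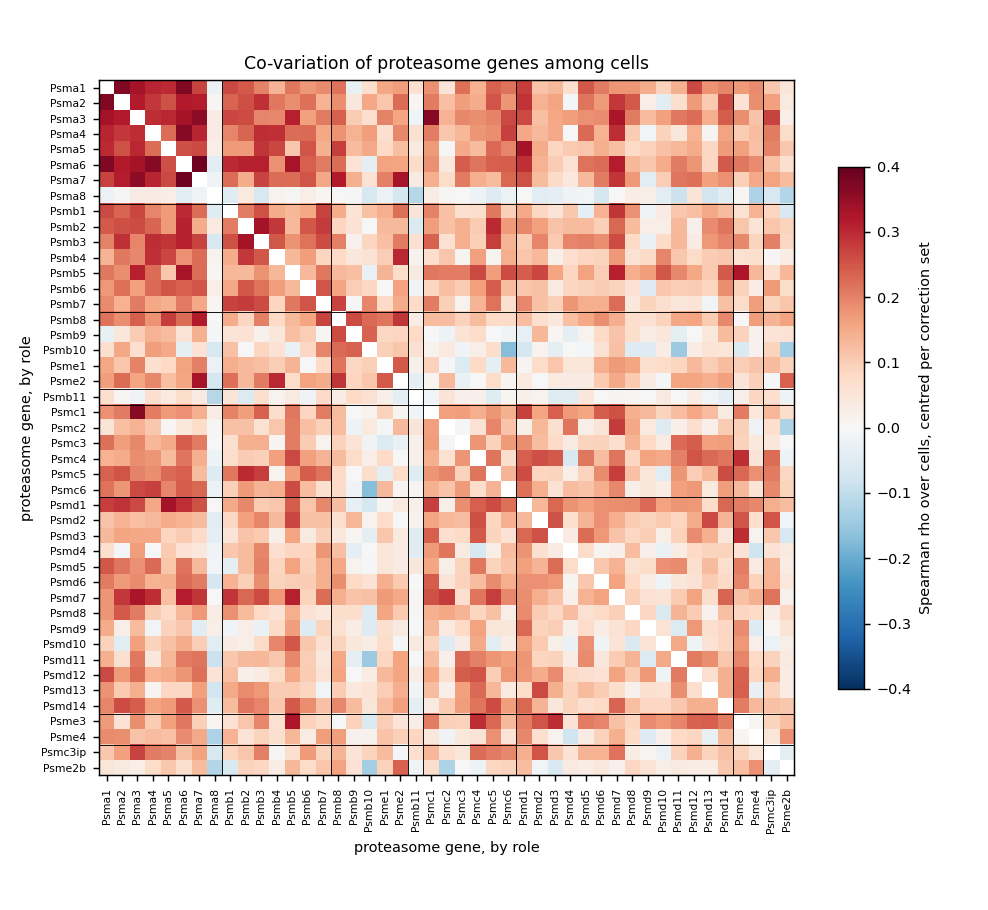
Spearman rho for every pair of the 45 proteasome genes over all cells, on values centred per correction set, with genes ordered by role and lines between roles. The block of alpha subunits is the darkest, Psmb8 is no lighter with the alpha subunit Psma7 (0.32) than with Psmb9 (0.26), and Psma8 and Psmb11 are near 0 with most genes.

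Outside the family, the genes most like Psmb9 by rho included Rab9 (0.29), Lgals3bp (0.24), Ciao2b (0.24) and Gm20545 (0.23). Psmb9 also had rho values of 0.19 with Tap1, 0.18 with B2m and 0.17 with Irf1. Psmb8 had 0.02, 0.11 and -0.08 with these 3 genes and Psmb10 0.06, 0.13 and 0.04. The constitutive Psmb6 and Psmb7 had 0.13 and 0.14 with B2m, so that value does not set Psmb9 apart. The genes most like Psmb8 included Mzb1, Trbc2 and Ptgr1 (all 0.34). For Psmb10 they were Zbtb1 (0.25), Ing2 (0.23), Anxa5 (0.23), Atp5o (0.22) and Rps15 (0.22).

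Kit, the receptor that marks the most immature thymic progenitors, was used to divide the cells of each set at its median, which gave 32, 32, 30 and 35 Kit-high and 35, 37, 34 and 26 other cells in the 4 mice. In the matrix 80 cells lay within 0.5 log2 units of the dividing value, so the classes are ranges of one continuous measure. Inside each mouse every gene's log2 value was fitted on the class with the correction set as a factor. Cells of a set in which their mouse had only 1 class add nothing to this fit, which left 29, 32, 34 and 26 other cells. Differences were taken from the fit, and class means over all cells of the class. The 4 differences, 1 per mouse, were tested against 0 with limma at an adjusted p of 0.05 over 12439 genes. All 45 members were among them, each detected in at least 10% of cells.

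Among the members, 3 regulatory genes were higher in Kit-high cells: the ATPase Psmc1, the lid subunit Psmd3 and Psmd5, a chaperone that helps assemble the base. Of the 45 members 3 passed as higher and 0 as lower, where 13.3% of all genes tested passed as higher and 0.796% as lower. At an unadjusted p under 0.05 there were 16 members. The members' share is below the background, so it is not a result about proteasome genes.

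Psmd5 averaged 7.34, 7.17, 6.98 and 7.47 in Kit-high cells of the 4 mice, and 6.20, 6.10, 5.52 and 6.46 in the other cells (log2 values). The lowest Kit-high mean was above the highest mean of the other cells. Its difference was 1.18 ± 0.18 (SD, n = 4 mice, limma adjusted p = 0.0178). Psmc1 differed by 0.85, 1.27, 1.59 and 0.40 log2 units in these mice, on average 1.03 ± 0.52 (limma adjusted p = 0.0389). Psmd3 differed by 1.39, 0.98, 1.56 and 0.26, on average 1.05 ± 0.58 (limma adjusted p = 0.0422). All 3 were higher in 4 of 4 mice, with mouse 2B the smallest for Psmc1 and Psmd3.

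Direction was shared more widely than calls. The difference was above 0 for all 34 constitutive genes and for 3 of the 5 immunoproteasome genes, with medians of 0.49 and 0.21 log2 units. The median of all members was 0.44 and that of all genes tested 0.33. Among genes detected in at least 50% of cells the order turned: the 42 members there had a median of 0.47 and all 7794 genes 0.54. By role the median was 0.62 for the regulatory particle, 0.56 for the ATPases, 0.43 for the alpha subunits and 0.24 for the constitutive beta subunits. With the number of detected genes as a covariate these were 0.26, 0.18, 0.17 and 0.11. The constitutive and immunoproteasome medians then lay close together, at 0.18 and 0.12. Among cells, the median Spearman rho with the number of detected genes was 0.17 for constitutive and 0.01 for immunoproteasome genes.

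Psmb8 had a difference of 0.34 ± 0.51 log2 units (SD, n = 4 mice) and values of 0.02, -0.19, 0.94 and 0.59 in the 4 mice. Psmb9 had 0.21 ± 0.32, Psme1 0.32 ± 0.33 and Psme2 -0.03 ± 0.12. Psmb10 varied most between mice, at -0.71, 1.03, -0.15 and -1.17 (mean -0.25 ± 0.95). None of these 5 passed, with limma adjusted p from 0.353 (Psme1) to 0.946 (Psme2), and their signs differed between mice for all but Psme1. Psmb5 (0.46 ± 0.12), Psmb6 (0.28 ± 0.25) and Psmb7 (0.50 ± 0.06) were above 0 in 4 of 4 mice and did not pass either, at adjusted p of 0.161, 0.405 and 0.126.

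The Kit-high cells also had more genes detected (median 8029 against 7339) and fewer cells of other kinds. Klrd1, Siglech, Mcpt8 (basophils) or Adgre1 (macrophages) reached a level of at least 10 in 11.6% of Kit-high cells and 50% of other cells. The summed level per cell of 8 plasmacytoid dendritic markers other than Siglech averaged at most 550 in Kit-high cells of the 4 mice and 2430 to 4650 in the others, with none of the markers at 0. In at least 1 mouse the other cells reached 7870 for 10 NK and innate lymphoid markers other than Klrd1, 3860 for macrophage and 4320 for basophil and mast cell markers, where Kit-high cells had at most 388 for macrophage and 657 for basophil and mast cell markers. Without all cells that express 1 of these 4 genes, 0 of 45 members and 0 genes of the whole table passed (1329 genes at an unadjusted p under 0.05). The members' median was 0.05, below the 0.13 of all genes. Psmd5 was then 0.76 (adjusted p = 0.362), Psmd3 0.82 (0.369) and Psmc1 0.26 (0.743). With the number of detected genes as a covariate 0 members and 2 genes passed (1663 unadjusted), and the medians were 0.17 for members and 0.11 for all genes.

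**Figure D4:**
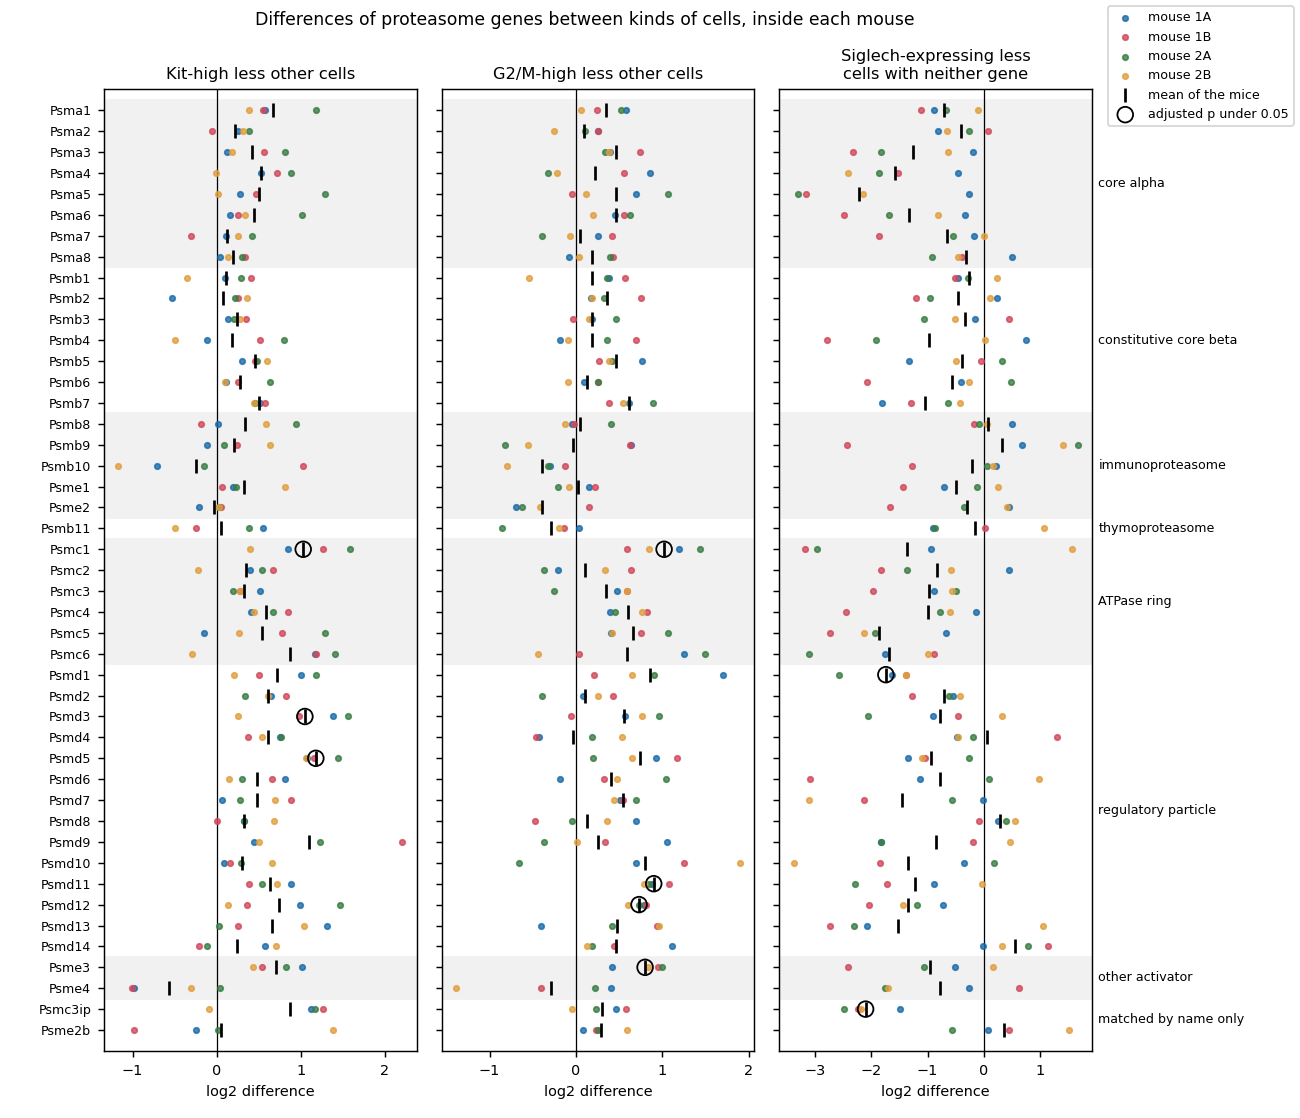
Log2 difference of each proteasome gene between classes of cells, inside each labelled mouse (coloured points), with the mean of the mice as a bar and a ring around means with a limma adjusted p under 0.05. Left, Kit-high less other cells, middle, G2/M-high less other cells, right, Siglech-expressing cells less cells with neither Klrd1 nor Siglech, with axes of different width. Most constitutive genes lie right of 0 in the first 2 panels and left of it in the third, and the mice straddle 0 for Psmb8 and Psmb9 in each.

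Other genes of the pathway were described from lists. Of 20 assembly factors and regulators of the proteasome 9 passed as higher in Kit-high cells and 0 as lower, with a median of 1.00, where 13.3% of all genes passed as higher and 0.796% as lower. Without cells expressing Klrd1, Siglech, Mcpt8 or Adgre1, 0 genes of any list passed (0 of the whole table) and the assembly list's median was 0.51. The values that follow are from the fit over all cells. They included Ecpas (2.02 ± 0.73, limma adjusted p = 0.0141), an adaptor of the proteasome, Psmg2 (1.67 ± 0.68, 0.0182), a chaperone of the alpha ring, and the deubiquitinase Usp14 (1.56 ± 0.53, 0.0163). Nfe2l2, the NRF2 factor that binds ARE sites, was higher by 1.38 ± 0.50 (0.0194) and the nuclear import factor Ipo9 by 1.26 ± 0.84 (0.045). Of 16 genes of ubiquitin delivery 1 passed (Ubqln4, 1.27 ± 0.48), and of 18 MHC class I genes 0 did (median -0.15). Among 25 interferon response genes 2 were lower, Gbp4 (-1.60 ± 0.52) and Irf7 (-1.35 ± 0.67), a regulator well known from plasmacytoid dendritic cells. Progenitor genes passed as higher in 8 of 11 and T-lineage genes in 7 of 11. Given the number of detected genes 0 genes of these lists passed, and the assembly list's median was 0.39.

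Cycling cells were taken as the third of each set with the highest mean of 52 G2/M genes, 22, 24, 22 and 21 cells of the 4 mice against 45, 45, 42 and 40 (44 of the 45 in 1A entered the fit). Of these 89 cells 49 were also Kit-high, and 25 cells lay within 0.1 SD units of the dividing score. In them 4 members were higher: again Psmc1, the lid subunits Psmd11 and Psmd12, and Psme3 (PA28 gamma), the nuclear activator. Of the 45 members 4 passed as higher and 0 as lower (14 at an unadjusted p under 0.05), where 14.2% of all genes tested passed as higher and 0.418% as lower. This share too is below the background.

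Psmd11 averaged 8.09, 8.06, 8.14 and 8.39 in G2/M-high cells of the 4 mice, against 7.27, 6.99, 7.46 and 7.61. The groups of means did not overlap, and the difference was 0.90 ± 0.13 log2 units (SD, n = 4 mice, limma adjusted p = 0.0238). Psmd12 averaged 7.17, 6.94, 7.01 and 6.96 against 6.47, 6.10, 6.34 and 6.35, a difference of 0.73 ± 0.09 (limma adjusted p = 0.0401). Neither did these means overlap. Psmc1 differed by 1.02 ± 0.38 (limma adjusted p = 0.0254) and Psme3 by 0.80 ± 0.26 (limma adjusted p = 0.0395). All 4 were higher in 4 of 4 mice.

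Again the constitutive genes leaned upward, 33 of 34 above 0 with a median of 0.46, while the 5 immunoproteasome genes had a median of -0.03 and 2 above 0. The median was 0.35 over all members and 0.29 over all genes. Among genes detected in at least 50% of cells it was 0.35 for 42 members and 0.47 for all 7794. ATPases (0.59) and regulatory particle (0.52) were above the alpha subunits (0.28) and constitutive beta subunits (0.19). With the number of detected genes as a covariate this order did not hold. The medians were then 0.11 for ATPases, -0.12 for the regulatory particle, 0.04 for alpha and 0.03 for constitutive beta subunits. For the constitutive and the immunoproteasome genes they were 0.04 and -0.31.

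Psmb10 was the 1 immunoproteasome gene with the same sign in all 4 mice. It averaged 6.88, 6.99, 7.09 and 6.54 in G2/M-high cells of the 4 mice and 7.06, 7.11, 7.34 and 7.34 in the other cells. Its difference was -0.39 ± 0.29 log2 units, below 0 in 4 of 4 mice, and did not pass (limma adjusted p = 0.245). Its partner Psmb7 averaged 6.97, 6.74, 6.76 and 7.07 against 6.33, 6.37, 5.93 and 6.51, and its difference of 0.61 ± 0.22 did not pass either (0.078). The means of Psmb7 did not overlap, while those of Psmb10 did in part. Psme2 had -0.39 ± 0.38 (0.267), Psmb8 0.05 ± 0.24, Psme1 0.02 ± 0.20 and Psmb9 -0.03 ± 0.77. Psmb9 was 0.64 and 0.62 in mice 1A and 1B, which are in the first sequencing pool only, and -0.82 and -0.56 in 2A and 2B. Mouse and pool cannot be fully told apart in this split, since only 2A is in both pools. Psmb5 had 0.46 ± 0.21 (0.158) and Psmb6 0.13 ± 0.16 (0.706).

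With ranks within the set in place of log2 values, Psmb10 and Psme2 passed as lower in G2/M-high cells, by 0.13 (limma adjusted p = 0.0105) and 0.12 (0.026) of the rank range. Over all alternatives their adjusted p ran from 0.0105 to 0.614 and from 0.026 to 0.823. No other alternative called Psmb10 or Psme2 in this comparison.

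G2/M-high cells had more genes detected (median 8255 against 7492), and 24.7% expressed Klrd1, Siglech, Mcpt8 or Adgre1 against 34.3% of the others. With the number of detected genes as a covariate 0 members and 1.33% of all genes passed (1539 genes unadjusted), and the medians were 0.02 over members and 0.0018 over all genes. Without cells expressing those 4 genes 0 members and 1.98% of all genes passed (2234 genes unadjusted). The members' median was 0.05, below the 0.17 of all genes. Psmc1 was then 0.28 (adjusted p = 0.613), Psmd11 0.35 (0.524), Psmd12 0.46 (0.437) and Psme3 0.52 (0.329). The Kit-high and G2/M-high classes share cells, so their values are given side by side only.

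Of the assembly factors and regulators 7 of 20 passed as higher in G2/M-high cells and 0 as lower, where 14.2% of all genes passed as higher and 0.418% as lower. Without cells expressing Klrd1, Siglech, Mcpt8 or Adgre1, and given the number of detected genes, 0 genes of the 4 lists described here passed. Among them were 3 chaperones of core assembly, Psmg2 (1.25 ± 0.49 log2 units, limma adjusted p = 0.0187), Psmg1 (1.19 ± 0.55, 0.025) and Psmg3 (0.97 ± 0.38, 0.0286). Akirin2, which carries proteasomes into the nucleus after division, was higher by 1.18 ± 0.37 (0.0164), and Fam192a, a partner of Psme3, by 1.27 ± 0.62 (0.0243). Given the number of detected genes the list's median fell from 0.75 to 0.02. In the ubiquitin list Ubqln4 passed (0.99 ± 0.63, 0.0498), 1 of 16. Tap1, Igtp and Irgm1 were the 3 of 25 interferon response genes that passed, all higher, and Tap1 (1.19 ± 0.56, 0.025) the 1 of 18 MHC class I genes, shares below that of all genes.

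To set each immunoproteasome subunit against the one it replaces, the difference of their log2 values was taken in each cell and the class effect on it was estimated inside each mouse. Such a shift compares change with change and not level with level. In G2/M-high cells Psmb10 less Psmb7 shifted by -0.91, -0.51, -1.21 and -1.34 in the 4 mice. All 4 were below 0, with a mean of -0.99 ± 0.37 log2 units (SD, n = 4). The exact two-sided sign-flip permutation p was 0.125, the smallest that 4 mice allow, and 0.625 after adjustment over the 15 shifts computed. Psmb8 less Psmb5 shifted by -0.40 ± 0.34, below 0 in all 4 mice though only by 0.0023 in 2A, with the same exact p. Psmb9 less Psmb6 shifted by -0.16 ± 0.75 and had 2 mice on each side.

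In Kit-high cells Psmb10 less Psmb7 shifted by -0.75 ± 0.91, with 3 of 4 mice below 0 and 1B at 0.45. The shifts of Psmb8 less Psmb5 (-0.12 ± 0.47) and Psmb9 less Psmb6 (-0.07 ± 0.46) were small beside their spread. In Siglech-expressing cells all 3 means were above 0: 0.46 ± 1.00 for Psmb8 less Psmb5, 0.89 ± 0.87 for Psmb9 less Psmb6 and 0.83 ± 0.84 for Psmb10 less Psmb7. The last was positive in 4 of 4 mice, but in 1B by 0.01. No shift could reach a p of 0.05 in this design. With the number of detected genes as a covariate, Psmb10 less Psmb7 was -0.75 in G2/M-high and 0.23 in Siglech-expressing cells, and without cells of other kinds it was -0.50 in G2/M-high cells. When the S phase list chose the cycling cells in place of the G2/M list, it was -0.09.

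**Figure D5:**
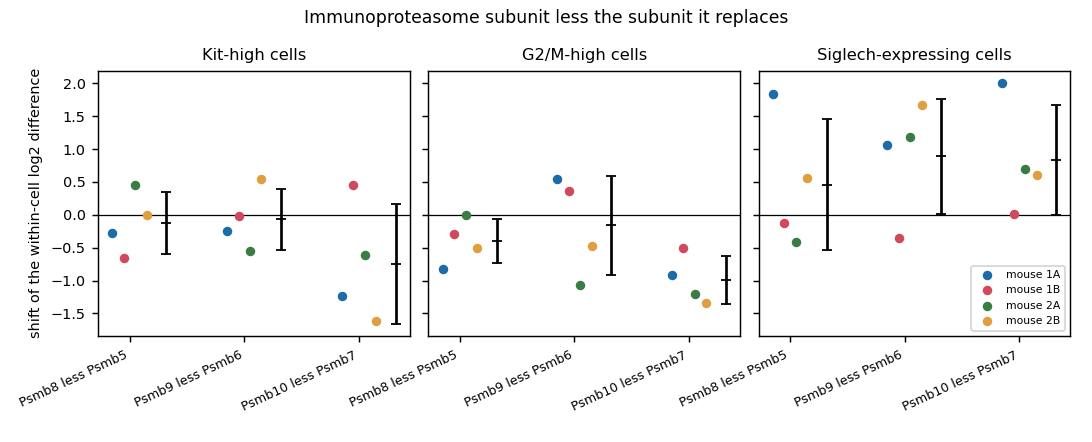
Shift of the within-cell log2 difference between an immunoproteasome subunit and the subunit it replaces, for Kit-high, G2/M-high and Siglech-expressing cells. Points are the 4 labelled mice and the black bar is their mean with SD. Psmb10 less Psmb7 lies below 0 in all 4 mice for G2/M-high cells and above 0 in all 4 for Siglech-expressing cells, where mouse 1B is at 0.01.

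Cells with Siglech and without Klrd1 (27) were compared with the 200 cells with neither gene. Psmd1, a large scaffold subunit of the base, was lower in them, and so was Psmc3ip, which is not a subunit. Of the 45 members 0 passed as higher and 2 as lower (14 at an unadjusted p under 0.05), where 1.09% of all genes passed as higher and 4.9% as lower, 5.98% in all. The members' share of 2 in 45 is near that background. The fit used 14, 4, 6 and 3 Siglech-expressing cells of the 4 mice and 43, 53, 48 and 30 reference cells, since some sets held only reference cells of a mouse.

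Psmd1 averaged 6.76, 7.02, 6.16 and 6.91 in Siglech-expressing cells of the 4 mice and 8.39, 8.39, 8.71 and 8.32 in the reference cells. The means did not overlap, and the difference was -1.74 ± 0.56 log2 units (SD, n = 4 mice, limma adjusted p = 0.05, below the threshold before rounding). Psmc3ip averaged 2.03, 1.30, 0.74 and 1.72 against 3.51, 3.50, 3.19 and 3.77, a difference of -2.10 ± 0.43 (limma adjusted p = 0.0363). Its means did not overlap either, at values near its no-read level.

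Of the 34 constitutive genes 31 had a difference below 0, with a median of -0.96, against 3 of 5 immunoproteasome genes and a median of -0.21. Over all members the median was -0.78 and over all genes -0.49. Among genes detected in at least 50% of cells these were -0.84 and -0.79. The ATPases (-1.18), the alpha subunits (-0.97) and the regulatory particle (-0.89) had lower medians than the constitutive beta subunits (-0.46). With the number of detected genes as a covariate these medians were -0.67, -0.68, -0.15 and -0.23. The regulatory particle then lay above the constitutive beta subunits. For the constitutive and the immunoproteasome genes the medians were then -0.45 and -0.04.

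Psmb8 averaged 9.02, 8.66, 8.69 and 8.59 in Siglech-expressing cells and 8.51, 8.85, 8.70 and 8.80 in the reference cells of the 4 mice, a difference of 0.08 ± 0.30 log2 units. The groups overlapped. Psmb9 had 0.67, -2.43, 1.67 and 1.40 (mean 0.33 ± 1.89) and Psmb10 0.21, -1.28, 0.05 and 0.17 (mean -0.21 ± 0.72). Both were below 0 in mouse 1B alone, which rests on 4 cells. Psme1 had -0.50 ± 0.74 and Psme2 -0.29 ± 0.99. Of the replaced subunits Psmb7 was below 0 in 4 of 4 mice (-1.80, -1.30, -0.64 and -0.42, mean -1.04 ± 0.63, limma adjusted p = 0.145), and Psmb5 (-0.39 ± 0.71) and Psmb6 (-0.57 ± 1.08) in 3 of 4. None of these 8 passed.

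Siglech-expressing cells carried the plasmacytoid dendritic list: 8 of 9 of its tested genes passed as higher, Siglech itself left out, among them Pld4 (6.74 ± 0.77), Irf8 (5.95 ± 0.90) and Spib (5.08 ± 0.46). The summed level of 8 of its genes, without Siglech, averaged 4380 to 17600 in the mice, against at most 563 in reference cells. Markers of other cells were present too: by mouse, basophil and mast cell markers summed to between 6.73 and 38500 (reference at most 1160), macrophage markers to between 371 and 6370 (at most 2690), and NK and innate lymphoid markers reached 1650 (at most 240), with Eomes at 0. With cells that express Mcpt8 or Adgre1 left out of both classes, the fit dropped mouse 2B and used 13, 3 and 6 Siglech-expressing cells. Then 0 members and 0 genes of the whole table passed (3501 unadjusted), Psmd1 was -2.24 (limma adjusted p = 0.0597), Psmc3ip -1.95 (0.0645), and the medians were -0.64 for members and -0.52 for all genes. The median number of detected genes of all Siglech-expressing cells was 7049 against 7931. With that number as a covariate 0 members and 32 genes passed (1658 unadjusted), Psmd1 was -1.02 (limma adjusted p = 0.38), and the medians were -0.29 for members and -0.20 for all genes. The assembly factors Ecpas (-3.52 ± 0.80, limma adjusted p = 0.0256) and Psmg2 (-3.20 ± 0.45, 0.0256) were lower, 2 of 20, and Gbp4 (2.82 ± 0.92, 0.0363) was the 1 of 25 interferon response genes to pass, higher. With either of these alternatives 0 genes of both lists passed. Of the ubiquitin and MHC class I lists 0 passed.

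In Klrd1-expressing cells without Siglech (25) against the same 200 cells, 0 of 45 members and 0.0% of all genes passed by limma (1 member and 1109 genes at an unadjusted p under 0.05). By mouse these are 6, 8, 9 and 2 cells. The fit used only 2 of the 6 in 1A, since the others lie in sets with no reference cell of that mouse, and all of them in the other mice. The median difference was -0.33 log2 units over members and -0.31 over all genes. All 5 immunoproteasome genes had means below 0, from -0.28 ± 0.39 for Psme1 to -1.41 ± 1.90 for Psmb10. Psmb10 had 0.06, -1.88, 0.09 and -3.91 in the 4 mice and Psmb9 0.57, -0.13, 0.73 and -3.18 (mean -0.50 ± 1.82). In both the lowest value is mouse 2B, with 2 cells. Psmb8 had -0.34 ± 0.88, Psme2 -0.28 ± 0.62, Psmb5 -0.31 ± 0.63, Psmb6 -0.08 ± 0.59 and Psmb7 -0.53 ± 0.85. The 18 MHC class I genes had a median of 1.08 and 10 NK and innate lymphoid markers other than Klrd1 3.44, with 0 passing in either list. The summed level of 10 such markers by mouse was between 18.1 and 36100, against at most 240 in reference cells. The Klrd1 and Siglech comparisons share their reference cells, so they are given side by side only.

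Klrd1- and Siglech-expressing cells were also set against each other in mice 1A, 1B and 2A, since 2B had no set with enough of both. The fit used 2, 6 and 9 Klrd1-expressing and 14, 4 and 5 Siglech-expressing cells. By limma 0 of 45 members and 0.0% of all genes passed (1 member and 1090 genes unadjusted). Members had a median of 0.39 and all genes 0.15 log2 units. Psmb9 had 0.42 ± 1.58 (SD, n = 3 mice), Psmb8 -0.51 ± 0.69, Psmb10 -0.31 ± 0.50, Psme1 0.62 ± 1.17 and Psme2 0.28 ± 1.76, and each had both signs among the 3 mice. Psmb5 (-0.06 ± 1.71), Psmb6 (0.30 ± 1.37) and Psmb7 (-0.01 ± 1.80) spread as widely.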

How the data were processed

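The authors deposited 1 matrix of normalized expression on a log2 scale (-4.13 to 15.99), per the labels and from its values after a batch correction. It holds 261 of the 300 labelled cells. The submitters' processing notes name Salmon and GRCm38, with versions, filters and correction tool not given in the sources used here. This unit allowed the planned test. Of 13737 features 13578 matched a GENCODE vM21 symbol. Cells sharing exact values formed 4 correction sets: at least 14.2% of values were shared within a set and 0% between sets. No pair of cells shared more than 0.0% of detected values. The repeated lowest value of a gene in a set is its no-read level (tolerance 1e-06), and a level is the linear value above it.

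Class differences were fitted by ordinary least squares inside each mouse with the set as a factor, for the 12439 genes detected in at least 10% of cells and mice with at least 2 cells per class. Differences of the mice were tested against 0 with limma 3.58.1 under R 4.3.3 (an intercept, eBayes without trend, two-sided) and Benjamini-Hochberg adjustment at 0.05. Scripts were tested on simulated data, with class labels shuffled and known shifts added to some genes. Of genes shifted by 1.0 log2 unit, 3 of 64 passed in the Kit design and 1 of 72 in the G2/M design. Of those shifted by 2.0 units, 65 of 78 and 54 of 68 passed there, but 0 of 63 in the Siglech design. So a gene that did not pass can still differ by such amounts. In the simulation 12239 of 12439 genes had no shift. The adjustment depends on how many genes differ, so the rates in the real data can be other than these. Members and lists were chosen with earlier results of these data known. Named with values are the immunoproteasome genes, Psmb5, Psmb6, Psmb7, every called member, up to 5 called genes of each other list and the 5 genes most like Psmb8, Psmb9 and Psmb10. Psmb11 and its epithelial markers, and members at the ends of a range, were described after their values were seen. Alternatives changed covariates, scale, filters, class definitions, cells and mice. Some of the genes most like a member are not reported here.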

Additional observations from a re-analysis of the deposited data

Results flagged for a closer look

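Among 53 sets of 4 mouse values checked for a value far from the other 3, 2 had one, and chance gives about 1 in 20. The Kit-high difference of Psme2 was -0.21 in mouse 1A and 0.03 to 0.05 in the other mice. The Siglech difference of Psmb10 was -1.28 in mouse 1B, which has 4 Siglech-expressing cells, and 0.05 to 0.21 in the others. The cause was not tested in either case.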

How the results depend on the processing

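Counts of members passing depended on the processing, and the cause was not tested. Percentages beside these counts are shares of all genes tested. In Kit-high cells 3 passed (14.1%), against 0 with the number of detected genes as a covariate (0.0161%). Without cells expressing Klrd1, Siglech, Mcpt8 or Adgre1, 0 passed (0.0%). With levels under 10 set to the no-read level 1 passed (10.3%), and 1 without the first 8 wells of each set (6.08%). With sets in place of mice 7 passed (20.3%). For the third with most Kit against the third with least 10 passed (19%), and 22 for Kit as a continuous value (31.2%). In these alternatives with more members passing, the share of all genes was higher too. Leaving out 1 mouse gave 0 to 5: 0 without 1A (0.185%), 1B (5.52%) or 2A (1.53%), and 5 without 2B (7.52%). In G2/M-high cells 4 passed (14.6%), against 0 with the number of detected genes (1.33%) and 0 without cells of other kinds (1.98%). When 1 mouse was left out 0 to 1 passed: 0 without 1A (5.27%) or 2B (4.82%), 1 without 1B (7.48%) or 2A (8.99%). In Siglech-expressing cells 2 passed (5.98%), against 1 with the plate as covariate (5.19%), 1 with low levels removed (2.73%) and 1 with no filter (2.68%). The count was 0 with the number of detected genes (0.257%), 0 with sets in place of mice (0.00804%) and 0 with any detection of Siglech (0.0%). With ranks it was 4 (7.98%). A level of at least 100 gave 5 (6.23%), and leaving Mcpt8- or Adgre1-expressing cells out of either class 0 (0.0%), both chosen after seeing the data. Without any 1 mouse it was 0 (0.0%). With any detection of Siglech, Psmc3ip turned to 0.19. Klrd1 comparisons had 0 members passing in every alternative run, where at most 3.72% of all genes passed. Of the pair shifts, Psmb10 less Psmb7 kept its sign in 16 of 16 alternatives in Kit-high (-1.20 to -0.32) and G2/M-high cells (-1.15 to -0.09) and in 17 of 17 in Siglech-expressing cells (0.06 to 1.10). With 2 to 14 cells per mouse in the Klrd1 and Siglech classes, differences of members near the background could not be resolved. The main test pairs the classes of cells inside each mouse. The labels give 1 group, so there is no pairing between labelled groups to test.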
